A study of Homo sapiens with 6 samples.

Results

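The miR-181 family was followed in BCSCs (breast cancer stem-like cells) obtained from MDA-MB-231, a human line that lacks hormone receptors and HER2 amplification, in 3 libraries treated with 200 μg/mL RA (rosmarinic acid, a plant phenolic acid) for 48 h and 3 control libraries without RA at 48 h. All cells carried the wild-type label, had been grown as spheres in serum-free medium with growth factors, and were moved to medium with serum for the treatment. Per the methods, RA was dissolved in dimethyl sulfoxide, and the concentration of 0 μg/mL was prepared alike. The 6 libraries come from 1 cell line, with 3 wells per group per the labels, so the p-values below measure the spread between these libraries. Members were all mature miRNAs whose name begins with miR-181a, miR-181b, miR-181c or miR-181d, which gave 8 of the 449 miRNAs in the table, hsa-miR-181a-5p and hsa-miR-181b-5p the most abundant of them (hsa, human, is left out below). There were 4 members from the 5p arm and 4 from the 3p arm.

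A miRNA is cut from a hairpin precursor, and usually 1 arm is loaded into an Argonaute protein as the guide while the other arm is degraded. The guide finds its target mRNAs mainly through its seed, bases 2 to 8. miR-181 guides are known for tuning T cell receptor signaling in thymocytes, for targeting BCL2-family mRNAs, and, in breast cancer cells, for being induced by TGF-β and favoring sphere growth.

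The 4 guides are shown because they carry the same seed and differ only behind it. The seed is in capitals, and the sequences are those of RefSeq (GRCh38.p14).
miR-181a-5p: aACAUUCAacgcugucggugagu
miR-181b-5p: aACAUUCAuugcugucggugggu
miR-181c-5p: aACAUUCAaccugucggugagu
miR-181d-5p: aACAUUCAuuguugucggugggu
Counted from 1 at the 5′ end, miR-181b-5p differs from miR-181a-5p by A9U, C10U and A21G. miR-181d-5p differs from miR-181b-5p by the single change C12U. miR-181c-5p is miR-181a-5p without the G at position 11. These 4 were the 4 miRNAs of the table with this seed among the 404 of 449 that could be matched to a RefSeq sequence. Reads of miR-181b-5p and miR-181d-5p are separated by 1 base, and how many mismatches the authors' counting allowed is not given in the sources used here.

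The 3p arms are shown because they separate hairpins that share a guide, again with bases 2 to 8 in capitals.
miR-181a-3p: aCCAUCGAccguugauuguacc
miR-181a-2-3p: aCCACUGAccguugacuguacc
miR-181b-2-3p: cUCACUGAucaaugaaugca
miR-181c-3p: aACCAUCGaccguugaguggac
miR-181a-3p and miR-181a-2-3p differ by U5C, C6U and U16C, of which U5C and C6U lie in the seed. miR-181a-3p and miR-181c-3p share a stretch of 15 bases. None of the 4 shares its seed with another matched miRNA of the table.

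The family is made from 6 hairpins at 3 loci. MIR181A1 (chr1:198859044-198859153) and MIR181B1 (chr1:198858873-198858982) lie 61 bases apart on the minus strand, in introns of the lincRNA gene MIR181A1HG in GENCODE v29 (GRCh38). MIR181A2 (chr9:124692442-124692551) and MIR181B2 (chr9:124693710-124693798) lie 1158 bases apart on the plus strand, in introns of MIR181A2HG and opposite to introns of NR6A1, the gene of an orphan nuclear receptor. MIR181C (chr19:13874699-13874808) and MIR181D (chr19:13874875-13875011) lie 66 bases apart on the plus strand, in annotated introns of NANOS3, a germ cell gene. Both miR-181a-5p and miR-181b-5p are made at chromosomes 1 and 9, so their reads cannot be assigned to a locus. No position is attached to the deposited values, for which the submitters' notes name hg19.

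The deposited values are CPM, which are reads scaled to an effective library size. Reads were recovered from them, since every value came out as whole reads within 0.01. The RA libraries held 176590 to 1158116 miRNA reads and the control libraries 2190324 to 4111404. One read therefore stood for 5.21 CPM in RA replicate 2, the shallowest, and for 0.233 CPM in control replicate 2, the deepest. The 5 listed miRNAs typical of mesenchymal-like breast cancer lines, such as miR-125b-5p and miR-100-5p, summed to 21837 to 30235 CPM in RA libraries and 26665 to 28808 CPM in control libraries. The 6 measured epithelial miRNAs, such as miR-200b-3p, summed to 186 to 283 CPM in RA libraries and 196 to 278 CPM in controls. The extraction text in the labels describes brain tissue. Of 9 listed neural miRNAs 5 were measured, and these summed to 5447 to 6626 CPM in RA libraries and 5535 to 5944 CPM in controls. The listed miR-124-3p, miR-219a-2-3p, miR-338-3p and miR-137-3p had no value in the table. miR-9-5p, the most abundant of the 5 and also known in breast cancer cells, stood at 3895 to 6022 CPM in RA libraries and 4880 to 5278 CPM in controls. Whether any of the RNA came from brain tissue was not tested. Of the 5 measured neural miRNAs, 1 had a log2 fold change above 0 and 4 below. Their median was -0.42, against 0.00 over all 449 miRNAs. Of the 5, 2 had an unadjusted p under 0.05 in limma (21.8% of all miRNAs) and 1 passed in edgeR (14.7% of all). The one above 0 was higher in limma, where 2.90% of all miRNAs were, namely miR-128-3p, at 722 ± 414 CPM after RA and 263 ± 5.67 CPM in controls (SD, n = 3 each, adjusted p = 0.039 from limma), and the call ended without RA replicate 3 or any 1 control library, with an adjusted p of up to 0.36. Of the epithelial and mesenchymal-like miRNAs 0 passed in limma, with 0 at an unadjusted p under 0.05, where 21.8% of all were. In edgeR 1 epithelial and 0 mesenchymal-like miRNAs passed an adjusted p of 0.05, where 14.7% of all did.

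No member of the family passed the test after RA. By limma on log2(CPM + 1), adjusted over all 449 miRNAs, 0 of the 8 members passed an adjusted p of 0.05, in either direction, where 7.57% of all miRNAs passed, 2.90% as higher and 4.68% as lower. None of the 8 had an unadjusted p under 0.05 in limma, where 21.8% of all did, and 0 passed after adjustment when the recovered reads were tested in edgeR, where 14.7% of all did, 8.46% as higher and 6.24% as lower. By DESeq2's test across all miRNAs, miR-181b-5p alone of the 8 had an unadjusted p under 0.05, where 23.5% of 447 miRNAs did, and its adjusted p from DESeq2 was 0.13. The median log2 fold change of the 8 was -0.06, with 3 above 0 and 5 below, against 0.00 over all 449 miRNAs. A p above the threshold does not show equal levels, so 95% intervals of the changes are given.

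miR-181b-5p was the most abundant member, 61st of all miRNAs by its mean over the 6 libraries. It stood at 1543, 1375 and 1774 CPM in RA libraries (1563, 264 and 610 reads) and at 1314, 1238 and 1441 CPM in controls (2498, 5317 and 4488 reads). RA replicate 2 lay within the control range and RA replicates 1 and 3 lay above it. The means were 1564 ± 200.2 CPM after RA and 1331 ± 103 CPM in controls (SD, n = 3 each). The log2 fold change was 0.23 (standard error 0.18, adjusted p = 0.55 from limma), with an interval of -0.17 to 0.63, or 0.886-fold to 1.55-fold.

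miR-181a-5p, the best studied guide of the family, ranked 68th. It stood at 924, 1109.6 and 1527 CPM in RA libraries (936, 213 and 525 reads) and at 1065, 1251 and 1215 CPM in controls (2025, 5372 and 3783 reads). The RA libraries lay on both sides of the controls, with RA replicate 1 below all of them and RA replicate 3 above all of them. The means were close, at 1187 ± 309 CPM after RA and 1177 ± 98.3 CPM in controls (SD, n = 3 each). The log2 fold change was -0.02 (standard error 0.22, adjusted p = 0.97 from limma), with an interval of -0.49 to 0.46, or 0.713-fold to 1.37-fold. Its sign turned with the scaling, to 0.12 when CPM was computed on the library total alone. There the median of all miRNAs moved too, from 0.00 to 0.13.

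miR-181d-5p ranked 109th and was the single member whose groups did not overlap, where 8.69% of all miRNAs did not overlap with RA higher and 17.1% with RA lower. It stood at 392, 318 and 311 CPM in RA libraries (397, 61 and 107 reads) and at 296, 275 and 302 CPM in controls (563, 1183 and 939 reads). The lowest RA library was close to the highest control. The means were 340.3 ± 44.9 CPM after RA and 291 ± 13.8 CPM in controls (SD, n = 3 each). The change on the log2 scale was 0.22 (adjusted p = 0.63 from limma, standard error 0.21), with an interval of -0.24 to 0.67. On CPM of the plain library total the gap was wider, at 343, 345 and 359 in RA libraries against 257, 288 and 274 in controls. On that scale miR-181b-5p did not overlap either, with RA higher, where 10.9% of all miRNAs showed this.

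miR-181c-5p was the rare guide. It stood at 9.87, 5.21 and 8.72 CPM in RA libraries and at 11.0, 12.3 and 5.78 CPM in controls. The groups overlapped, and the RA values rested on 10, 1 and 3 reads, against 21, 53 and 18 reads in controls. On the log2 scale RA differed from control by -0.24 (limma, adjusted p = 0.81, standard error 0.58), with an interval of -1.51 to 1.02. That interval includes a change of 2-fold in either direction. Over the pooled reads of each group the ratio of RA to control was 0.915, with an exact 95% interval of 0.481 to 1.61 that covers counting error only.

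**Figure D1:**
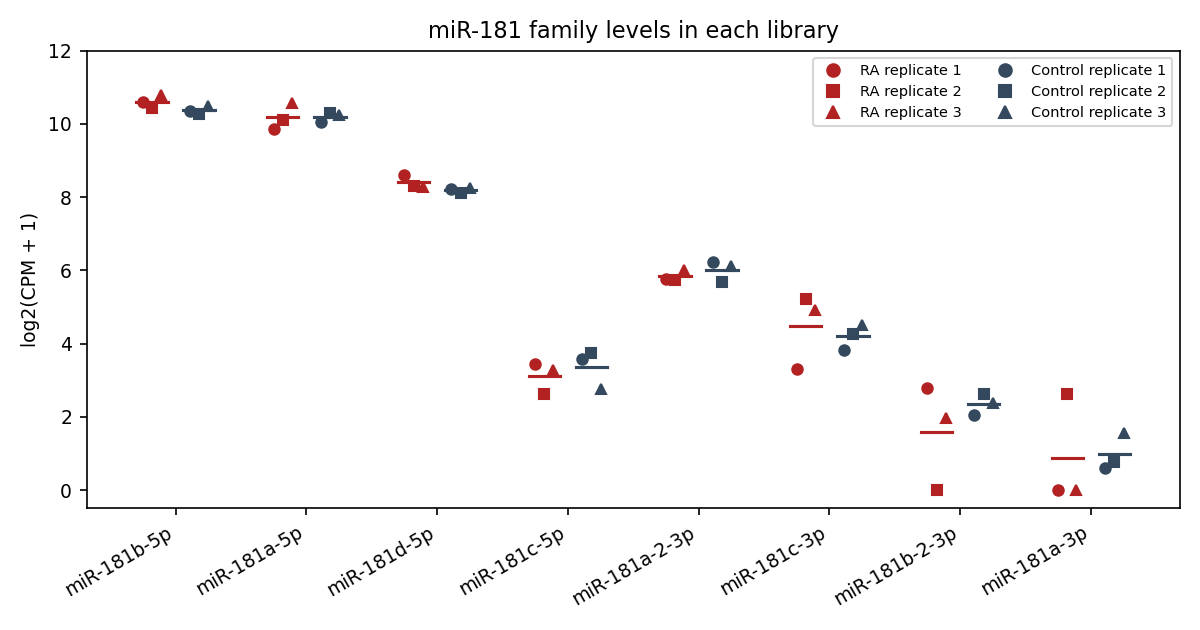
log2(CPM + 1) of the 8 members in each library, the 4 guides on the left and the 4 3p arms on the right. Points are libraries and lines are group means; the 3 RA points of miR-181d-5p lie above its control points, and for the other members the groups overlap.

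By mean CPM the 3p arms were lower than the guides they pair with, apart from miR-181c-3p. Guide reads of miR-181a and miR-181b come from 2 hairpins each, so guide levels per hairpin are not known for them. miR-181a-2-3p, from chromosome 9, stood at 53.3, 52.1 and 64.0 CPM in RA libraries (54, 10 and 22 reads) and at 73.7, 50.1 and 68.4 CPM in controls (140, 215 and 213 reads). Every RA value lay within the control range, and the log2 change was -0.17 (adjusted p = 0.77 from limma, standard error 0.31), with an interval of -0.85 to 0.52. miR-181c-3p, from chromosome 19, stood at 8.89, 36.5 and 29.1 CPM in RA libraries (9, 7 and 10 reads) and at 13.2, 18.2 and 21.8 CPM in controls (25, 78 and 68 reads). One RA library lay below all controls and 2 lay above, and its log2 fold change was 0.28 (standard error 0.56, adjusted p = 0.78 from limma), with an interval of -0.95 to 1.51. Without RA replicate 1 it was 0.87, with an adjusted p of 0.21, and without RA replicate 2 it was -0.09.

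miR-181b-2-3p and miR-181a-3p were near the limit of detection. miR-181b-2-3p, from chromosome 9, had 6, 0 and 1 reads in RA libraries and 6, 22 and 13 reads in controls, with a pooled ratio of 1.03 and an exact interval of 0.389 to 2.31. miR-181a-3p, from chromosome 1, had 0, 1 and 0 reads in RA libraries and 1, 3 and 6 reads in controls, with a ratio of 0.601 and an exact interval of 0.0139 to 4.23. In RA replicate 2 a count of 0 allowed up to 15.6 CPM, the level of 3 reads, which is above every value of these 2 arms in any library. Their levels could therefore not be compared between the groups, and their log2 fold changes of -0.76 (interval -2.54 to 1.01) for miR-181b-2-3p and -0.10 (interval -2.01 to 1.82) for miR-181a-3p depend on the added 1. The 3p arm of MIR181B1 and that of MIR181D had no value in the table. Over its 20 bases miR-181b-2-3p differs from miR-181b-3p of MIR181B1 by A9U alone.

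**Figure D2:**
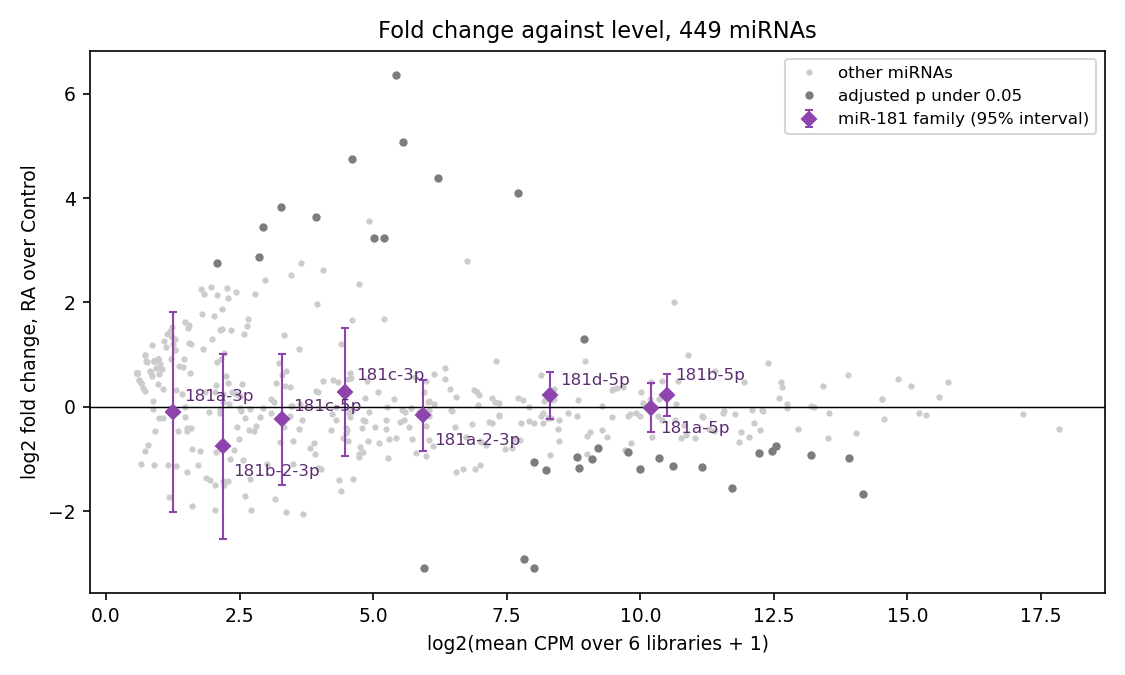
Log2 fold change, RA over control, of each of the 449 miRNAs against its level over the 6 libraries. Grey points are other miRNAs (dark where the adjusted p from limma was under 0.05); diamonds are the 8 members with 95% intervals, all of which include 0 and which are widest at low levels.

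Read shares showed which guides made up the family in these cells. The sum of all 8 members was 2938, 2902 and 3716 CPM in RA libraries and 2777, 2850.1 and 3060 CPM in controls, or 0.257% to 0.428% of all miRNA reads in RA libraries and 0.241% to 0.298% in controls. RA replicate 3 had the highest sum, mainly through miR-181a-5p and miR-181b-5p. miR-181 is abundant in blood cells too, so their markers were examined. The 7 listed blood cell miRNAs summed to 1683 to 2682 CPM in RA libraries and 1935 to 2104 CPM in controls, and none of the 7 had 0 reads in all controls. In RA replicate 3 the list was split, with 4 members above every control (miR-150-5p, miR-223-3p, miR-451a and miR-144-3p) and 3 below every control (miR-142-3p, miR-142-5p and miR-486-5p), all named after their values were seen. Between the groups 4 of the 7 had a log2 fold change above 0 and 3 below. Of the 7, 1 was higher in limma (2.90% of all miRNAs), 2 had an unadjusted p under 0.05 (21.8% of all) and 3 passed in edgeR (14.7% of all). The one in limma was the red cell miRNA miR-451a, at 402 ± 401 CPM after RA and 15.0 ± 16.2 CPM in controls (SD, n = 3 each, adjusted p = 0.031 from limma). It stood at 824, 26.0 and 355 CPM in RA libraries and at 5.26, 33.8 and 6.10 CPM in controls. RA replicate 1 was thus the highest, and RA replicate 2 lay within the control range. The limma call ended without RA replicate 1 or 3 or control replicate 1 or 3, with an adjusted p of up to 0.44. The part of blood cells in the family's values was not tested. In bulk RNA a change in the share of some cells and a change per cell cannot be told apart.

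miR-181b-5p made up 50.6% ± 2.77 of the guide reads after RA and 47.4% ± 2.42 in controls (SD, n = 3 each). miR-181a-5p made up 38.0% ± 5.16 after RA and 41.9% ± 2.81 in controls. miR-181d-5p took 11.2% ± 2.54 after RA and 10.4% ± 0.578 in controls, and miR-181c-5p 0.257% ± 0.0805 and 0.350% ± 0.135. The order from miR-181b-5p and miR-181a-5p over miR-181d-5p to miR-181c-5p held in all 6 libraries. Within libraries miR-181b-5p was above miR-181a-5p in 5 of 6, with control replicate 2 the exception. The log2 ratio of miR-181a-5p to miR-181b-5p was -0.42 ± 0.28 in RA libraries and -0.18 ± 0.17 in controls (SD, n = 3 each). Levels of different miRNAs are read here as CPM of sequences of 20 to 23 nt, with no correction for how well each one is ligated.

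**Figure D3:**
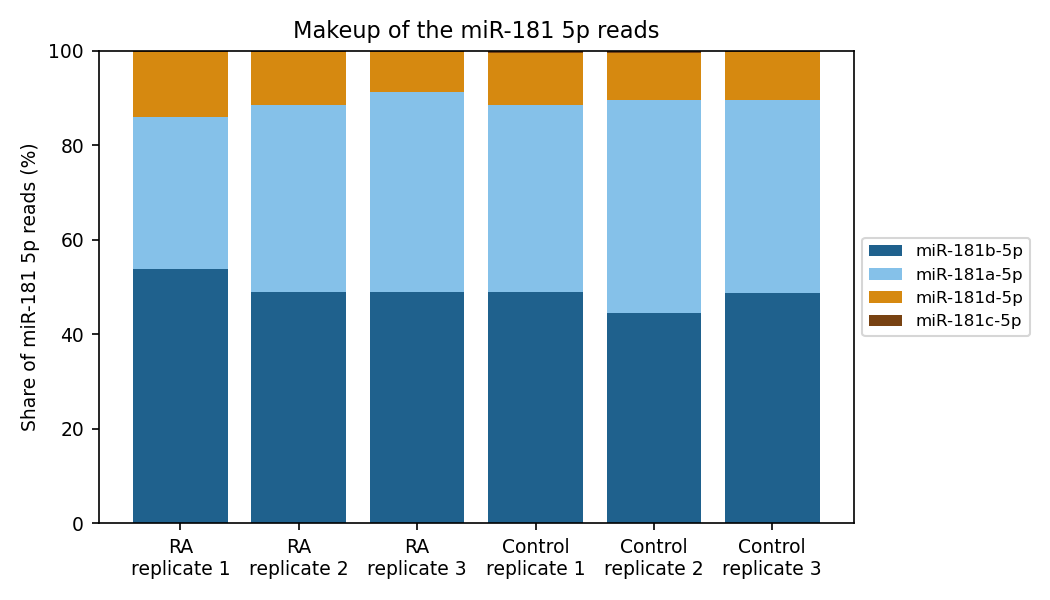
Share of each guide among the miR-181 5p reads of each library, in percent, RA libraries on the left. miR-181b-5p fills 49.0% to 53.8% of the RA bars and 44.6% to 48.9% of the control bars, and miR-181c-5p, at most 0.444%, is barely visible.

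The guides of chromosomes 1 and 9 outnumbered those of chromosome 19. Summed CPM of miR-181a-5p and miR-181b-5p over that of miR-181c-5p and miR-181d-5p was 6.14, 7.69 and 10.3 in RA libraries and 7.74, 8.65 and 8.64 in controls. The RA libraries spread on both sides of the narrow control range. The log2 ratio, with 1 added to each sum, was 2.97 ± 0.37 after RA and 3.05 ± 0.09 in controls (SD, n = 3 each), a difference of -0.08 (exact permutation test, two-sided, p = 0.70). With 3 libraries against 3 the smallest p this test can give is 0.10. The ratio of miR-181a-5p to miR-181b-5p was 0.599, 0.807 and 0.861 in RA libraries and 0.811, 1.01 and 0.843 in controls. Its log2 value differed by -0.24 between RA and control (exact permutation test, two-sided, p = 0.40), lowest in RA replicate 1. Within chromosome 19 the 2 guides were far apart in level although their hairpins are neighbors, with 39.7, 61.0 and 35.7 times as much miR-181d-5p as miR-181c-5p in RA libraries and 26.8, 22.3 and 52.2 times in controls. The value of 61.0 rested on 1 read of miR-181c-5p.

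The 3p arms placed nearly all detected miR-181a passenger reads on chromosome 9. miR-181a-2-3p held 86 of 87 such reads in the RA libraries (98.9%, exact 95% interval 93.8% to 100.0%) and 568 of 578 in controls (98.3%, 96.8% to 99.2%). These shares are of the 3p arms alone, and the source of the miR-181a-5p reads was not tested. miR-181a-3p had 0 reads in RA replicates 1 and 3, so a ratio of these 2 arms is set there by the added 1. The difference between the groups in that ratio is therefore not read as a result. Adjusted by the Benjamini-Hochberg method over the 3 ratios computed, this one included, the p-values of the other two were 1.0.

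Arm use was compared for every pair of a 5p and a 3p arm in the table, 127 in all, by limma on the log2 ratio. Of these, 5 changed at an adjusted p under 0.05 (3.94%), and 0 of the 4 pairs of the family did, with 0 of the 4 at an unadjusted p under 0.05, where 11.0% of all pairs were. miR-181a-5p and miR-181b-5p are each made from 2 hairpins, so their ratios set guide reads of both hairpins against the 3p arm of 1. miR-181a-5p was 17.3, 21.3 and 23.9 times miR-181a-2-3p in RA libraries and 14.5, 24.99 and 17.8 times in controls. The RA ratios lay within the control range, and the log2 ratio changed by 0.15 (standard error 0.34, adjusted p = 0.89 from limma). miR-181b-5p was 260.5 and 610 times miR-181b-2-3p in RA replicates 1 and 3, which had 6 and 1 reads of the 3p arm, and 416, 242 and 345 times in controls. RA replicate 2 had 0 reads of that arm, so its ratio is set by the added 1. The fitted log2 difference of 0.99 was 0.28 without that library and was 1.60 without RA replicate 1.

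Among the 4 measured pairs of the family, that of MIR181C was the one whose 3p arm was higher by mean CPM. miR-181c-3p held 26 of 40 reads of both arms in RA libraries (65.0%, exact 95% interval 48.3% to 79.4%) and 171 of 263 in controls (65.0%, 58.9% to 70.8%). By library the share was 47.4%, 87.5% and 76.9% in RA and 54.3%, 59.5% and 79.1% in controls, so the 5p arm led in RA replicate 1 alone, with 10 reads against 9. The control shares differed among themselves, with an interval of 50.6% to 68.0% in control replicate 2 and of 69.0% to 87.1% in control replicate 3. The log2 ratio of 5p to 3p changed by -0.53 (standard error 0.83, adjusted p = 0.87 from limma). Across the table the 3p arm was the higher one in 44 of 127 pairs by mean CPM, or 34.6%. The other 3 pairs of the family had a guide at 5p by 14.5-fold or more in every library with reads of the 3p arm.

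**Figure D4:**
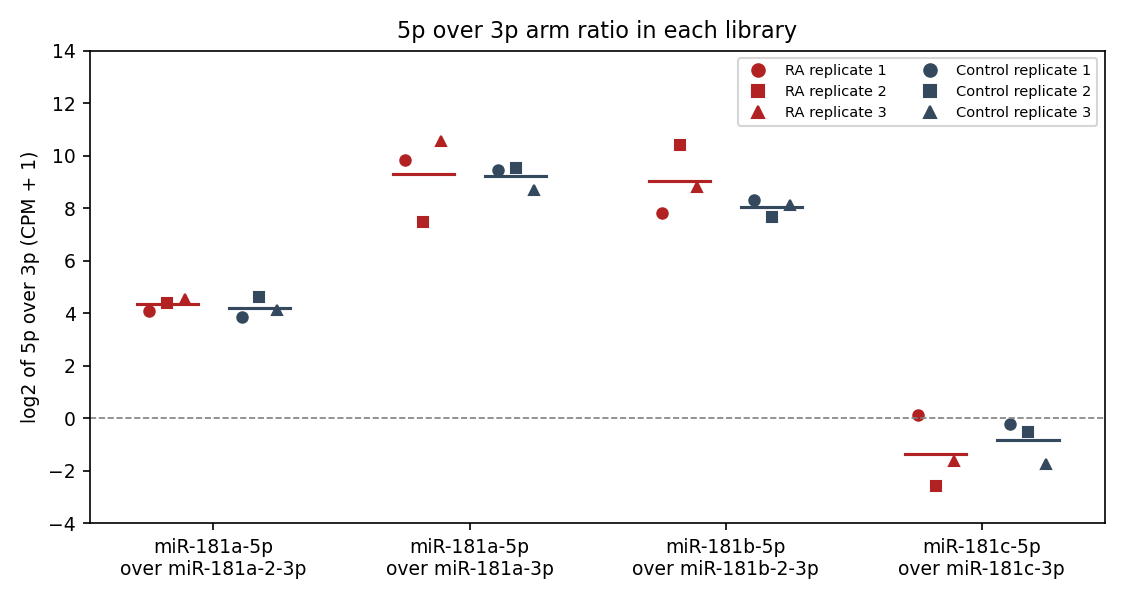
Log2 ratio of the 5p to the 3p arm, with 1 CPM added to each, for the 4 pairs of the family in each library. Points are libraries, lines are group means, and the dashed line marks equal arms; the miR-181c pair is the one near or below it, and all 4 pairs overlap between RA and control, where points with 0 reads of the 3p arm (RA replicates 1 and 3 for miR-181a-3p, RA replicate 2 for miR-181b-2-3p) are set by the added 1.

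The profile of miR-181b-5p over the 6 libraries was most like those of miR-125a-3p, miR-221-3p, miR-15b-5p, miR-99b-5p and miR-744-5p among 259 miRNAs of at least 10 CPM. Likeness was the root mean square difference of log2(CPM + 1) after each profile was centered on its own mean. It was 0.03 for miR-125a-3p and 0.10 to 0.12 for the other 4, against a median of 0.47. Its own relatives were further off, with miR-181d-5p 10th (0.16), miR-181a-5p 27th (0.22), miR-181a-2-3p 33rd (0.24) and miR-181c-3p 184th (0.64). miR-125a-3p stood at 97.8, 88.6 and 110.5 CPM in RA libraries and 87.9, 80.1 and 90.6 CPM in controls. These are descriptions over 6 libraries of 2 groups. Within a library all profiles share its depth and scaling, and depth differed between the groups.

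Among the other miRNAs known to target BCL2, the anti-apoptotic gene that miR-181 guides also target, 1 of 9 changed in limma, where 7.57% of all miRNAs did, and 4 of 9 had an unadjusted p under 0.05, where 21.8% of all did. edgeR called 1 of the 9, where it called 14.7% of all miRNAs. miR-195-5p, of the cell cycle-restraining miR-15/16 family, was lower, at 281 ± 37.3 CPM after RA and 636 ± 43.2 CPM in controls (SD, n = 3 each), a log2 change of -1.18 (adjusted p = 0.0050 from limma, standard error 0.20). Its call ended without control replicate 1, at an adjusted p of 0.060. The median log2 fold change of the 9 was -0.62, with 8 below 0, against -0.17 over the 260 miRNAs of at least 10 CPM, of which 162 lay below 0. miR-365a-3p and miR-365b-3p, both in the list, had identical reads in every library, so 1 signal stands in these counts 2 times. The 4 with an unadjusted p under 0.05 in limma were miR-15a-5p, miR-16-5p, miR-195-5p and miR-497-5p, all of the miR-15/16 family. They were named after their values were seen and are not all separate signals. miR-204-5p, also below 0 and named likewise, had 5, 0 and 0 reads in RA libraries and 7, 16 and 11 reads in controls. Of 5 miRNAs known to be induced by TGF-β, 0 passed in limma (7.57% of all miRNAs) and edgeR called 0 of them (14.7% of all). In limma 1 of the 5 had an unadjusted p under 0.05, where 21.8% of all did. All 5 had a log2 fold change below 0, from -0.83 to -0.25. The value of -0.25 was that of miR-21-3p, also named after its values were seen. It stood at 22.7, 5.21 and 29.1 CPM in RA libraries and at 18.4, 20.5 and 16.7 CPM in controls. RA replicates 1 and 3 thus lay above every control, and the value of RA replicate 2 rested on 1 read. Of all 449 miRNAs 224 lay below 0, and of the 260 of at least 10 CPM 162 did. The list holds both arms of miR-21, so its 5 members are not all separate signals. The value of -0.83 was that of miR-182-5p, named after its values were seen, which had 3, 1 and 0 reads in RA libraries and 23, 19 and 3 reads in controls. The most abundant of them was miR-21-5p, a widely studied oncogenic miRNA, at 192345, 217785 and 184992 CPM in RA libraries and 281246, 228847 and 292288 CPM in controls.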

How the data were processed

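Small RNA libraries were made from 3 RA and 3 control samples. The authors deposited 1 normalized signal for each mature miRNA in each library (CPM, scaled by effective library size) and a log2 value per group, which was not used. The submitters' notes name hg19; no aligner or counter is named in what was read here. Of 2694 values, 100% gave whole reads within 0.01. Since CPM is not a count, limma 3.58.1 with a mean-variance trend (R 4.3.3) fitted log2(CPM + 1) of the 449 miRNAs, unfiltered, with Benjamini-Hochberg adjustment. It weighted all libraries equally despite their depth. edgeR 4.0.16 (TMM), DESeq2 1.42.0 and limma-voom used the recovered reads. Arm ratios were fitted by limma over 127 pairs. Ratios between members used exact permutation tests (scipy 1.17.1), and shares of reads exact Clopper-Pearson intervals. Intervals and floors of 3 reads cover counting error only. Tests were tested on simulated reads. The simulation took its spread from the control libraries, so it does not cover the spread between RA libraries. Other pseudocounts (0.5 and 5), scalings, a filter, a replicate block and leaving out each library were tried. Members, gene lists and tests were chosen with earlier results of these data known. The rule for naming took all members, the 5 profiles most like the most abundant member, and of each list those past the test and up to 2 of the most abundant. Sequences come from RefSeq (GRCh38.p14), where all 8 members matched, and gene positions from GENCODE v29.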

Additional observations from a re-analysis of the deposited data

How the results depend on the processing

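No member passed an adjusted p under 0.05 in the 16 alternatives, edgeR and DESeq2 among them, in which the lowest adjusted p of a member was 0.13. miR-181b-5p, miR-181d-5p and miR-181a-2-3p kept their sign in the 16, at 0.13 to 0.41, 0.11 to 0.41 and -0.33 to -0.01. Of 127 member fold changes, 20 had the other sign. miR-181a-5p (-0.02) was 0.12 on the library total, 0.11 with upper-quartile factors, 0.017 in edgeR and 0.19 in DESeq2, and -0.21 to 0.15 without 1 library. miR-181a-3p (-0.10) was 0.076 with a pseudocount of 5, 0.0015 with upper-quartile factors, 0.18 in DESeq2 and 0.38 in voom, and -0.97 to 0.34 without 1 library. voom gave 0.098 for miR-181b-2-3p, -0.063 for miR-181c-3p and 0.051 for miR-181c-5p; without 1 library the first lay from -1.36 to 0.032 and miR-181c-3p from -0.091 to 0.87. The group difference of the log2 ratio of miR-181a/b to miR-181c/d (-0.08) lay from -0.28 to 0.097 without 1 library. That of miR-181a-2-3p to miR-181a-3p (-0.07) lay from -0.60 to 0.86 without 1 library. This second ratio is set by the pseudocount in 2 RA libraries, and its difference was 0.19 with a pseudocount of 0.5. The log2 arm ratio changes without 1 library lay from -0.029 to 0.36 for miR-181a-5p over miR-181a-2-3p, from -0.56 to 0.99 over miR-181a-3p, from 0.28 to 1.60 for miR-181b-5p over miR-181b-2-3p and from -1.28 to 0.090 for miR-181c, and the one over miR-181a-3p was -0.091 with a pseudocount of 5. The causes were not tested.
The replicate numbers are shared by the groups and were not used as pairs in the main test. Correlations of deviations were 0.12, -0.19 and 0.13 for the same number, against -0.25 to 0.14 for other numbers. With 3 libraries per group they cannot decide whether the libraries are paired. With the replicate block the ratio of miR-181a/b to miR-181c/d differed by -0.08, miR-181b-5p by 0.23, and no member was called.
Over all miRNAs, 13 were called higher and 21 lower, against 38 and 28 in edgeR, 48 and 22 in DESeq2, 47 and 30 in voom, 17 and 11 on the library total, 17 and 12 with upper-quartile factors, and 24 and 31 with the replicate block. Without 1 library 6 to 21 were higher and 4 to 28 lower. Over the whole table the median fold change (log2) moved from 0.00 to 0.13 on the library total, 0.12 with upper-quartile factors, 0.15 in edgeR, 0.20 in voom and 0.32 in DESeq2.
The filter of 1 CPM in 3 libraries left no value for miR-181a-3p, and DESeq2 gave it no adjusted p. Depth limits the rare members: 3 reads are 15.6 CPM in RA replicate 2.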
